A study of Homo sapiens with 4 samples.

Results

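The transcription factors of the epithelial-mesenchymal transition (EMT) were examined as 10 genes fixed by name, namely SNAI1, SNAI2, SNAI3, ZEB1, ZEB2, TWIST1, TWIST2, PRRX1, OVOL1 and GRHL2, out of 60721 genes in the count table. The libraries came from HS578T, a long-established human breast carcinoma cell line, all co-transfected with GFP. One group (SCR) received a non-targeting control siRNA and the other (siTLN1) an siRNA against TLN1, the gene of the integrin adaptor talin-1, each at 1.6 µM with RNA taken 48 h later. Each group held 2 libraries of polyadenylated RNA, made as biological replicates and called library a and library b here, with 31854322 to 46353297 counts per library. The number of siRNA sequences used is not given in the sources used here, and protein was not measured.

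EMT is the switch by which epithelial cells give up junctions and polarity and take on a motile, matrix-producing state. SNAI and ZEB proteins are zinc finger repressors that bind E-box sequences in epithelial genes such as CDH1 and recruit chromatin-modifying corepressors. The TWIST proteins are basic helix-loop-helix factors that pair with E proteins, and PRRX1 is a paired-type homeobox factor of mesenchyme. OVOL1 and GRHL2 act on the other side, holding cells in the epithelial state, GRHL2 in part by opposing ZEB1. In breast carcinoma lines of mesenchymal type, including HS578T, the promoting factors are known to be expressed and epithelial genes to be silent.

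None of the EMT factors passed the test between siTLN1 and SCR, while their levels spanned a wide range within each group. SNAI2 and PRRX1 were the most abundant, ZEB1, TWIST1 and TWIST2 were intermediate, and ZEB2 was lower. SNAI1 was low, at 14 to 55 raw counts, and SNAI3 was near the limit of detection, at 5 to 11. OVOL1 and GRHL2 had 0 counts in all 4 libraries. Of the 10 genes, 7 passed the filter on low counts, and the same 7 have a row in the deposited log2 CPM table. SNAI3, OVOL1 and GRHL2 have none. When edgeR's quasi-likelihood test was run over 16137 genes and adjusted by Benjamini-Hochberg, 0 of the 7 had an adjusted p under 0.05, against 6.07% of all tested genes (2.3% called higher and 3.77% called lower). In edgeR's test 0 of the 7 had an unadjusted p under 0.05, against 3196 of the 16137 tested genes. In limma-voom and in limma-trend without a block 0 of the 7 passed, where 964 and 951 genes were called. DESeq2 gave an adjusted p for 6 of the 7, SNAI1 having none, and 0 of these passed. Adjusted p ran from 0.292 for TWIST2 to 0.96 for SNAI2. The libraries of the groups did not overlap for 4 of the 7 (ZEB1, ZEB2 and TWIST2 lower, PRRX1 higher), against 48.4% of all tested genes. The median log2 fold change of the 7 was −0.088, beside 0.0033 over all tested genes. Of the 7, 5 were lower and 2 higher, and 49.4% of all tested genes were lower. With 2 libraries per group the smallest p of an exact permutation test on 1 gene is 0.333, so the p values come from the model across genes. In RNA of whole cultures, a change in all cells and a change in a fraction of the cells cannot be told apart.

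**Figure D1:**
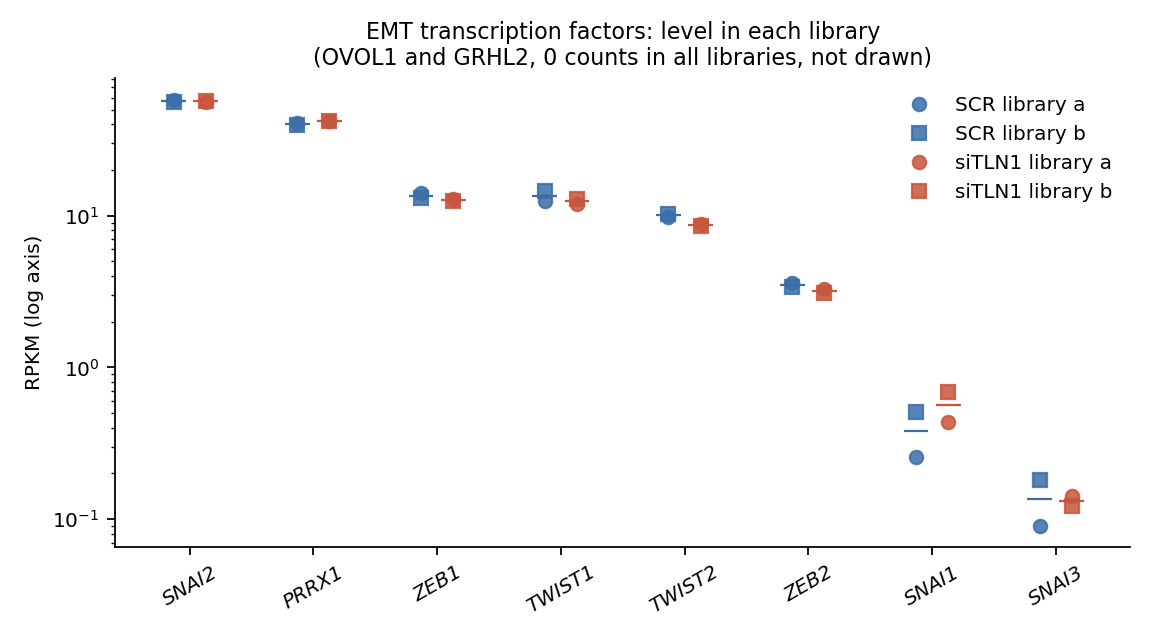
Level of 8 EMT transcription factors in each library, as RPKM (reads per kilobase of exon, scaled for library size) on a log axis, with SCR in blue, siTLN1 in red, circles for library a, squares for library b and short lines for group means. SNAI2 lies highest in both groups (57.2 and 56.6 RPKM) and SNAI3 lowest (0.136 and 0.132 RPKM).

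The target transcript was checked first. TLN1 had 868 and 874 CPM (counts scaled to a fixed library size with TMM) in the SCR libraries and 51.9 and 44.8 CPM in the siTLN1 libraries, a log2 fold change of −4.17 ± 0.11 (SE) (edgeR, adjusted p = 3.89e-13). The reduction of the labelled target was thus present in both siTLN1 libraries. The sample source is described as epithelial, so defining markers of both states were read. VIM, the intermediate filament protein of mesenchymal cells, was at 736 to 767 RPKM over the 4 libraries, and FN1, the matrix glycoprotein fibronectin, at 1368 to 1880 RPKM. CDH1, the epithelial cadherin, was at 0.067 to 0.14 RPKM, CLDN4, a tight junction claudin, at 0.21 to 0.33 RPKM, and ESRP1, an epithelial splicing regulator, at a mean of 0.0091 RPKM in SCR. EPCAM, an epithelial surface molecule, had 0, 5, 5 and 6 raw counts, and KRT19, a keratin of simple epithelia, had 0, 0, 3 and 6, in the order SCR a, SCR b, siTLN1 a, siTLN1 b. These epithelial markers were thus near or at 0 and the mesenchymal ones abundant in both groups. Other epithelial genes were well expressed in SCR, among them the keratin gene KRT18 at 38.2 RPKM, above 93.6% of the tested genes, and the desmosomal gene DSG2 at 16.8 RPKM. Leukocyte markers summed to 1.46 to 1.92 CPM and endothelial markers to 4.92 to 6.45 CPM per library. Each list had 3 of 6 genes tested and 0 called in edgeR. An unadjusted p under 0.05 was found for 0 leukocyte markers, 1 endothelial marker and 3196 of the 16137 tested genes. CD3E was at 0 in all libraries.

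**Figure D2:**
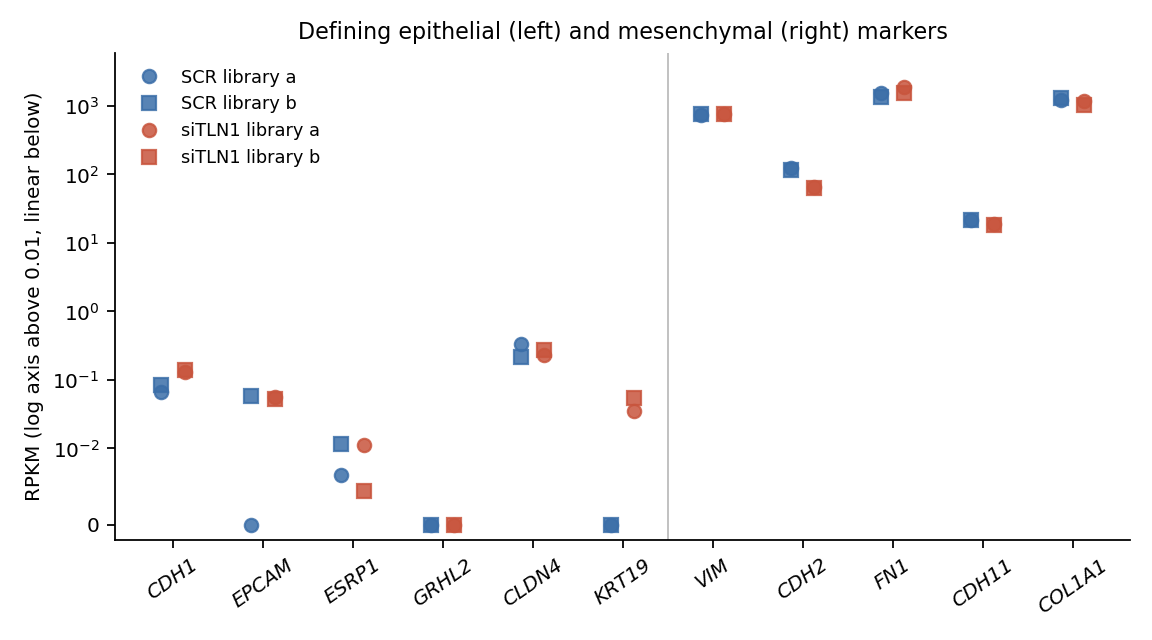
RPKM of defining epithelial markers (left of the line) and mesenchymal markers (right) in each library, on an axis that is logarithmic above 0.01 and linear below. The highest epithelial value is CLDN4 in SCR library a at 0.3345 RPKM, while VIM lies between 736 and 767 RPKM.

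The ZEB factors are large repressors with a zinc finger cluster at each end and a homeodomain between them. ZEB1 (ENSG00000148516.21; GRCh38, chromosome 10, 31318495 to 31529814, plus strand) had 122 and 112 CPM in SCR (117 ± 6.58, SD, n = 2) and 112 and 109 CPM in siTLN1 (110 ± 2.14, SD, n = 2). Both siTLN1 libraries lay below both SCR libraries, by little. The log2 fold change was −0.088 ± 0.093 (SE) (edgeR, adjusted p = 0.668), and its 95% interval spans 0.821-fold to 1.08-fold. ZEB2 (ENSG00000169554.21; chromosome 2, 144364364 to 144521057, minus strand) had 89.1 and 84.2 CPM in SCR (86.6 ± 3.5, SD, n = 2) and 81.7 and 77.0 CPM in siTLN1 (79.3 ± 3.3, SD, n = 2). Here too the groups did not overlap, with a log2 fold change of −0.13 ± 0.094 (SE) (edgeR, adjusted p = 0.499) and an interval of 0.798-fold to 1.05-fold. Per length of exon the 2 genes differed in level, with means of 13.5 RPKM for ZEB1 and 3.48 RPKM for ZEB2 in SCR, a ratio of 3.89, and a ratio of 3.99 in siTLN1. ZEB1 made up 79.7% and 79.3% of the summed ZEB RPKM in SCR and 79.7% and 80.2% in siTLN1. The count of ZEB2 is divided by 24861 exon bases over all its annotated transcripts, which lowers its RPKM where a shorter transcript is the one expressed.

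The ZEB transcripts are shown here by their 3′ UTR sites, because ZEB1 and ZEB2 are the known targets of the miR-200 family, whose members keep epithelial cells epithelial, and because ZEB1 holds a 7-base word that earlier results on these libraries had linked to lower fold changes. The miR-200 family falls into a pair of seed groups (RefSeq, GRCh38.p14, bases 2 to 8 in capitals).
miR-200b-3p: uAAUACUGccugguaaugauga
miR-200c-3p: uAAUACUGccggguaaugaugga
miR-429: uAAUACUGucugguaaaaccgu
miR-200a-3p: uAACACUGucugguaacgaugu
miR-141-3p: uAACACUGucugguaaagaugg

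In the coding transcript of each gene with the longest coding sequence (GENCODE 29), the 3′ UTR of ZEB1 (2549 bases) held 6 copies of CAGTATT, the complement of the first seed group, and 3 of CAGTGTT, that of the second. The 3′ UTR of ZEB2 (5370 bases) held 5 and 4. Not every coding transcript held them, as 3 of 9 for ZEB1 had each word in the 3′ UTR. For ZEB2, 12 of 31 had the first word there and 16 of 31 the second. Among 11973 tested coding genes other than TLN1, each having 100 or more 3′ UTR bases, 18.0% held the first word and 19.8% the second at least once. The first copy of each word in ZEB1 and ZEB2 is given with its surroundings on the transcript strand, the word in capitals.
ZEB1, first group: ttttatcttatCAGTATTatcactcttatg
ZEB1, second group: atcatcagaatCAGTGTTtgtgattgtgtt
ZEB2, first group: ctaccatacatCAGTATTtttattattatt
ZEB2, second group: aaaattttgtaCAGTGTTaaggcctaaaaa

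Mature miRNAs are not measured by libraries of polyadenylated RNA, so only annotated host and precursor genes could be read. MIR200CHG, MIR200C, MIR141, MIR200A, MIR200B, MIR429, MIR205HG and MIR205 had 0 counts in all 4 libraries, where 3 counts, the limit that a count of 0 allows for counting error alone, correspond to 0.0638 to 0.0944 CPM. Such libraries may miss the short precursor genes, so their counts do not show whether the miRNAs are made. Of the other EMT factors, SNAI1, SNAI3 and OVOL1 each held 1 copy of CACTGCC, the complement of the miR-34a seed, in the 3′ UTR. ZEB1 also held 1 copy there, and 16.0% of the genes held this word. In the 3′ UTR, SNAI2 held 1 copy of the first miR-200 word and GRHL2 held 1 copy of the second. Outside the chosen transcripts, 1 of 2 coding transcripts of TWIST2 and 1 of 3 of PRRX1 held the second miR-200 word there. The miR-34a word was likewise in 1 of 2 of TWIST2.

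The word GACAACA, searched on the transcript strand, was present in the 3′ UTR of 7.85% of the 11973 genes. Genes with it had a median log2 fold change of −0.098 and 16.8% were called lower, against a median of 0.014 and 3.49% called lower among the 11033 genes without it. The word was taken from earlier results on these same libraries, so this difference is no independent support. Genes were not matched for 3′ UTR length. Of the EMT factors, ZEB1 alone held it in the 3′ UTR of the chosen transcript, as 1 copy, which is shown with the word in capitals. In 2 of 9 coding transcripts of ZEB1 the 3′ UTR held it.
ZEB1, GACAACA: gcataagttggGACAACAgatatttgttga
ZEB2 held 1 copy and GRHL2 held 2 copies in the coding sequence. The part of this word in the values of ZEB1 and ZEB2 was not tested.

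The TWIST factors bind DNA in pairs with E proteins and are best known from mesoderm and neural crest. TWIST1 (ENSG00000122691.13; chromosome 7, 19020991 to 19117636, minus strand) had 24.9 and 29.03 CPM in SCR (27.0 ± 2.93, SD, n = 2) and 23.8 and 25.9 CPM in siTLN1 (24.9 ± 1.46, SD, n = 2). The groups overlapped, since siTLN1 library b lay above SCR library a. Within a and within b, the siTLN1 library was the lower one. With the replicate numbers as a block, limma-trend gave TWIST1 an adjusted p of 0.315. The log2 fold change was −0.12 ± 0.11 (SE) (edgeR, adjusted p = 0.621) and an interval of 0.785-fold to 1.08-fold. Without SCR library b it was −8.76e-05, and without SCR library a it was −0.22. TWIST2 (ENSG00000233608.4; chromosome 2, 238848032 to 238910534, plus strand) had 18.4 and 19.2 CPM in SCR (18.8 ± 0.57, SD, n = 2) and 16.4 and 16.0 CPM in siTLN1 (16.2 ± 0.301, SD, n = 2). Both siTLN1 libraries lay below both SCR libraries, and TWIST2 had the smallest p among the EMT factors, 0.0656 unadjusted in edgeR's test across genes and 0.292 adjusted. Its log2 fold change was −0.21 ± 0.11 (SE), and its interval of 0.735-fold to 1.01-fold includes no change. Of all tested genes, 22.5% had a smaller p than TWIST2. The related pair had a more even balance than the ZEB genes, as TWIST1 made up 55.9% and 58.6% of the summed TWIST RPKM in SCR and 57.6% and 60.2% in siTLN1.

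The SNAI factors share a repressor domain at the N terminus and differ widely in level here. SNAI2, also called SLUG, is the family member typical of basal and mesenchymal breast cells. SNAI2 (ENSG00000019549.13; chromosome 8, 48917598 to 48921740, minus strand) had 191 and 184 CPM in SCR (188 ± 4.31, SD, n = 2) and 184 and 188 CPM in siTLN1 (186 ± 2.39, SD, n = 2). The groups overlapped, and the log2 fold change was −0.013 ± 0.090 (SE) (edgeR, adjusted p = 0.96). Its 95% interval, 0.868-fold to 1.13-fold, bounds the difference that these libraries allow. At a mean of 57.2 RPKM in SCR, SNAI2 was above 96.0% of the tested genes. SNAI1 (ENSG00000124216.4; chromosome 20, 49982980 to 49988886, plus strand), the factor named Snail, had 14 and 30 raw counts in SCR and 27 and 55 in siTLN1. These counts are 0.440 and 0.861 CPM in SCR (0.651 ± 0.298, SD, n = 2) and 0.742 and 1.17 CPM in siTLN1 (0.956 ± 0.303, SD, n = 2). Library b was the higher one in both groups, and SCR library b lay above siTLN1 library a. Within a and within b, the siTLN1 library was the higher one. With the replicate numbers as a block, limma-trend gave SNAI1 an adjusted p of 0.203. The log2 fold change of SNAI1 was 0.57 ± 0.36 (SE) (edgeR, adjusted p = 0.426) and its interval, from 0.868-fold to 2.52-fold, is the widest among the tested EMT factors. Leaving out 1 library moved the log2 fold change of SNAI1 to 0.18 (SCR a left out), 1.15 (SCR b), 0.83 (siTLN1 a) or 0.17 (siTLN1 b). The mean RPKM of SNAI2 was 150.0 times that of SNAI1 in SCR and 101 times in siTLN1. SNAI3 (ENSG00000185669.6; chromosome 16, 88677688 to 88686507, minus strand), the least studied of the family, had 5 and 11 raw counts in SCR and 9 and 10 in siTLN1. It failed the filter on low counts, and a fit without that filter gave a log2 fold change of −0.061 with an interval of −1.18 to 1.06 on the log2 scale. Its SD in CPM was 0.112 in SCR around a mean of 0.237, and the siTLN1 mean was 0.23.

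PRRX1 (ENSG00000116132.12; chromosome 1, 170662728 to 170739421, plus strand), a homeobox gene of limb and craniofacial mesenchyme, had 339 and 327 CPM in SCR (333 ± 8.52, SD, n = 2) and 349 and 348 CPM in siTLN1 (349 ± 1.33, SD, n = 2). Both siTLN1 libraries lay above both SCR libraries. The log2 fold change was 0.065 ± 0.092 (SE) (edgeR, adjusted p = 0.769), and its interval was 0.914-fold to 1.2-fold. PRRX1 had the highest CPM among the EMT factors, and with length taken into account, at 40.4 RPKM in SCR, it came after SNAI2. The lengths are exon bases over all annotated transcripts, 8248 for PRRX1 and 3281 for SNAI2, so their order depends on the lengths used. Together SNAI2 and PRRX1 made up 70.4% of the summed RPKM of the 10 genes in SCR and 72.4% in siTLN1. That sum was 139.5 and 137.8 RPKM in the SCR libraries and 136.0 and 137.3 RPKM in the siTLN1 libraries.

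The order of levels per exon length was the same by group mean in SCR and siTLN1, running SNAI2, PRRX1, ZEB1, TWIST1, TWIST2, ZEB2, SNAI1, SNAI3, with OVOL1 and GRHL2 at 0. Neighbours in this order were separated by the library values in both groups, except ZEB1 and TWIST1, whose libraries overlapped in SCR and in siTLN1, and OVOL1 and GRHL2, both at 0. Dividing by length mattered, as 5 of the 10 genes kept their rank when CPM was used instead. OVOL1 (ENSG00000172818.10; chromosome 11, 65787063 to 65797214, plus strand), a zinc finger repressor of mesenchymal genes in skin and mammary epithelium, had 0 counts in each library. GRHL2 (ENSG00000083307.12; chromosome 8, 101492439 to 101669726, plus strand), a grainyhead-family activator of junction genes, had 0 counts in each library as well. With 3 counts as the limit, each was below 0.0638 to 0.0944 CPM, and below 0.02 CPM over the 4 libraries together, for counting error alone.

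**Figure D3:**
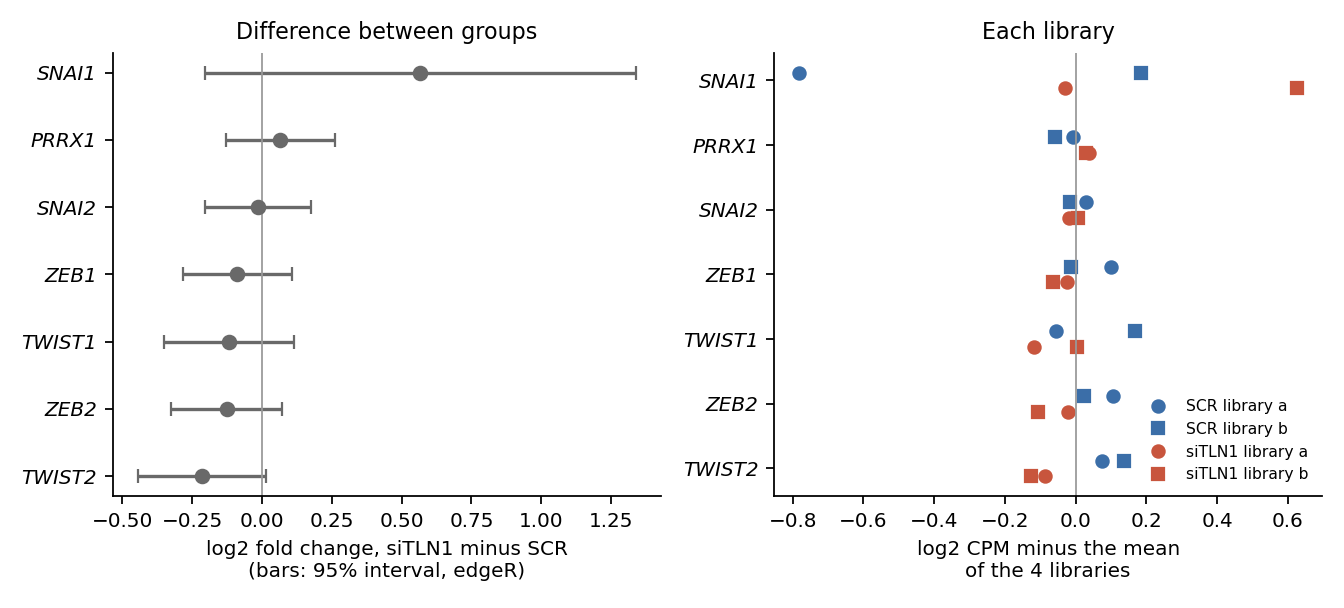
Left, log2 fold change (siTLN1 minus SCR) of the 7 tested EMT transcription factors with its 95% interval from edgeR. Right, log2 CPM of each library minus the mean over the 4 libraries, with SCR in blue, siTLN1 in red, circles for library a and squares for library b; all intervals include 0, and SNAI1 has the widest spread.

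Reads were counted without regard to strand, so neighbours on the opposite strand bear on some of these counts. In the annotation of the count table, exons of opposite-strand genes covered 4.58% of the exon bases of ZEB1 (ZEB1-AS1), 5.23% of ZEB2 (ZEB2-AS1), 7.06% of TWIST1, 10.2% of SNAI3 (SNAI3-AS1), 27.3% of OVOL1 and 0.826% of GRHL2. SNAI1, SNAI2, TWIST2 and PRRX1 shared no exon base with another gene. ZEB1-AS1, an antisense RNA transcribed from the ZEB1 promoter region, had 132 and 158 raw counts in SCR and 123 and 179 in siTLN1, well under the 3872 to 5107 raw counts of ZEB1. ZEB2-AS1 had 1, 0, 2 and 2. SNAI3-AS1 had 126 and 162 raw counts in SCR and 73 and 127 in siTLN1, more than SNAI3 itself, so the assignment of reads between SNAI3 and SNAI3-AS1 is uncertain. SNAI3-AS1 was called lower, from 3.96 and 4.65 CPM to 2.0 and 2.7 CPM, a log2 fold change of −0.86 (edgeR, adjusted p = 0.0138), which was −0.67 with an adjusted p of 0.179 without siTLN1 library a.

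The partners, regulators and targets of these factors were then described from lists of genes. These lists were written with earlier results of these data known, so the shares called in them are a description and no independent test. Over the lists of the circuit, leukocyte and endothelial markers aside, 24 of 191 tested genes were called (12.6%), against 6.07% of all tested genes, and the median log2 fold change was 0.018, against 0.0033. Of these 24, 8 kept an adjusted p under 0.05 in every fit run, including each fit without 1 library, namely SOX4, NFIB, TEAD4, TFAP2A, CTDSPL, MDM2, EPAS1 and CDH2. The other 16 lost it in at least 1 fit, and the fit with the highest adjusted p among those without 1 library is given beside each gene named. In those fits the lone library of a group is assumed to vary like the other group. All 24 kept their direction in every fit.

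Among other transcription factors that can promote EMT, 5 of 17 tested genes were called, 3 higher and 2 lower, with a list median of 0.091. SOX4, a factor induced by TGF-beta in EMT, was at 61.1 and 64.0 CPM in SCR and 119 and 111 CPM in siTLN1, a log2 fold change of 0.88 ± 0.094 (SE) (edgeR, adjusted p = 2.45e-05). SOX9, which acts with SNAI2 in mammary cells, rose from 18.1 and 20.3 CPM to 27.1 and 26.4 CPM (log2 fold change 0.48, adjusted p = 0.0131), with an adjusted p of 0.129 without siTLN1 library a. HMGA2, a chromatin protein that can induce SNAI1 and TWIST1, rose by a log2 fold change of 0.40 (adjusted p = 0.0238, and 0.31 without siTLN1 library a). TEAD4, a DNA-binding partner of YAP, fell from 23.8 and 25.4 CPM to 12.4 and 14.5 CPM, a log2 fold change of −0.87 (adjusted p = 0.000211). NFIB fell from 78.8 and 72.0 CPM to 50.7 and 49.6 CPM, a log2 fold change of −0.59 (adjusted p = 0.00134). The most abundant genes of the list in SCR were FOSL1 at 210.4 RPKM, FOXC2 at 30.5 RPKM and TBX3 at 29.4 RPKM, and none of these 3 was called.

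Epithelial-state factors gave 1 call among 8 tested genes, with 11 of 19 below the filter, among them OVOL2, GRHL3, ELF3 and ESR1. TFAP2A, an AP-2 factor of ectoderm and mammary epithelium, fell from 108 and 110 CPM to 56.3 and 49.8 CPM, a log2 fold change of −1.04 ± 0.098 (SE) (edgeR, adjusted p = 5.90e-06). Antisense genes cover 16.8% of the exon bases of TFAP2A. KLF4, a zinc finger factor of epithelial differentiation, at 12.7 RPKM in SCR, and GATA3, the luminal mammary factor, at 2.98 RPKM, were not called. Among E proteins and ID factors 1 of 6 tested genes was called. TCF4, an E protein that can pair with TWIST, rose from 34.9 and 29.5 CPM to 52.2 and 42.8 CPM (log2 fold change 0.56, adjusted p = 0.0105), with an adjusted p of 0.181 without siTLN1 library a. ID3, an inhibitor that sequesters E proteins, was the most abundant of the list at 82.0 RPKM in SCR, followed by the E protein gene TCF3 at 19.04 RPKM and ID2 at 17.4 RPKM, and none of these 3 was called.

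Of the corepressors and chromatin partners recruited by SNAI, ZEB and TWIST proteins, 0 of 24 were called in edgeR. Of the 24, 2 had an unadjusted p under 0.05, against 3196 of the 16137 tested genes. LOXL2, a lysyl oxidase that binds SNAI1, was the most abundant at 192 RPKM in SCR, followed by its relative LOXL3 at 51.7 RPKM and the histone deacetylase gene HDAC1 at 32.7 RPKM. Among the 27 listed regulators of the stability of these proteins, 2 were called, both lower. MDM2, a ubiquitin ligase that acts on p53 and also on SNAI2, fell from 40.9 and 34.9 CPM to 21.0 and 21.2 CPM (log2 fold change −0.84, edgeR adjusted p = 0.000143). CTDSPL, a small phosphatase of a family that acts on SNAI1, fell from 35.8 and 33.5 CPM to 20.5 and 23.1 CPM (log2 fold change −0.66, adjusted p = 0.00108). The most abundant of this list in SCR were PSMD14, a deubiquitinase of the proteasome, at 22.2 RPKM, and the phosphatase gene CTDSP2 at 21.5 RPKM, neither of them called. GSK3B, the kinase that marks SNAI1 for degradation, at 18.0 RPKM in SCR, was not called either, with a log2 fold change of −0.18 (adjusted p = 0.307).

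Of the signals and factors known to induce the EMT factors, 4 of 29 tested genes were called, 1 higher and 3 lower, with a list median of −0.024. EPAS1, the oxygen-regulated factor HIF-2 alpha, fell from 208 and 174 CPM to 70.9 and 63.8 CPM, a log2 fold change of −1.50 ± 0.11 (SE) (edgeR, adjusted p = 5.03e-07). TGFB2, a ligand of the TGF-beta family, fell from 178 and 185 CPM to 142 and 140 CPM (log2 fold change −0.37, adjusted p = 0.0233, and 0.179 without siTLN1 library a). Other genes share 24.8% of the exon bases of TGFB2. IL6, a cytokine that acts through STAT3, fell from 53.6 and 62.8 CPM to 32.0 and 42.6 CPM (log2 fold change −0.64, adjusted p = 0.0128), with an adjusted p of 0.131 without siTLN1 library a, and antisense genes cover 20.7% of its exon bases. LEF1, a nuclear effector of Wnt signalling, rose from 25.1 and 23.9 CPM to 31.4 and 34.1 CPM (log2 fold change 0.42, adjusted p = 0.0225, and 0.164 without siTLN1 library b). HIF1A at 62.6 RPKM, MET at 61.1 RPKM and JUN at 54.3 RPKM in SCR were the most abundant and were not called.

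**Figure D4:**
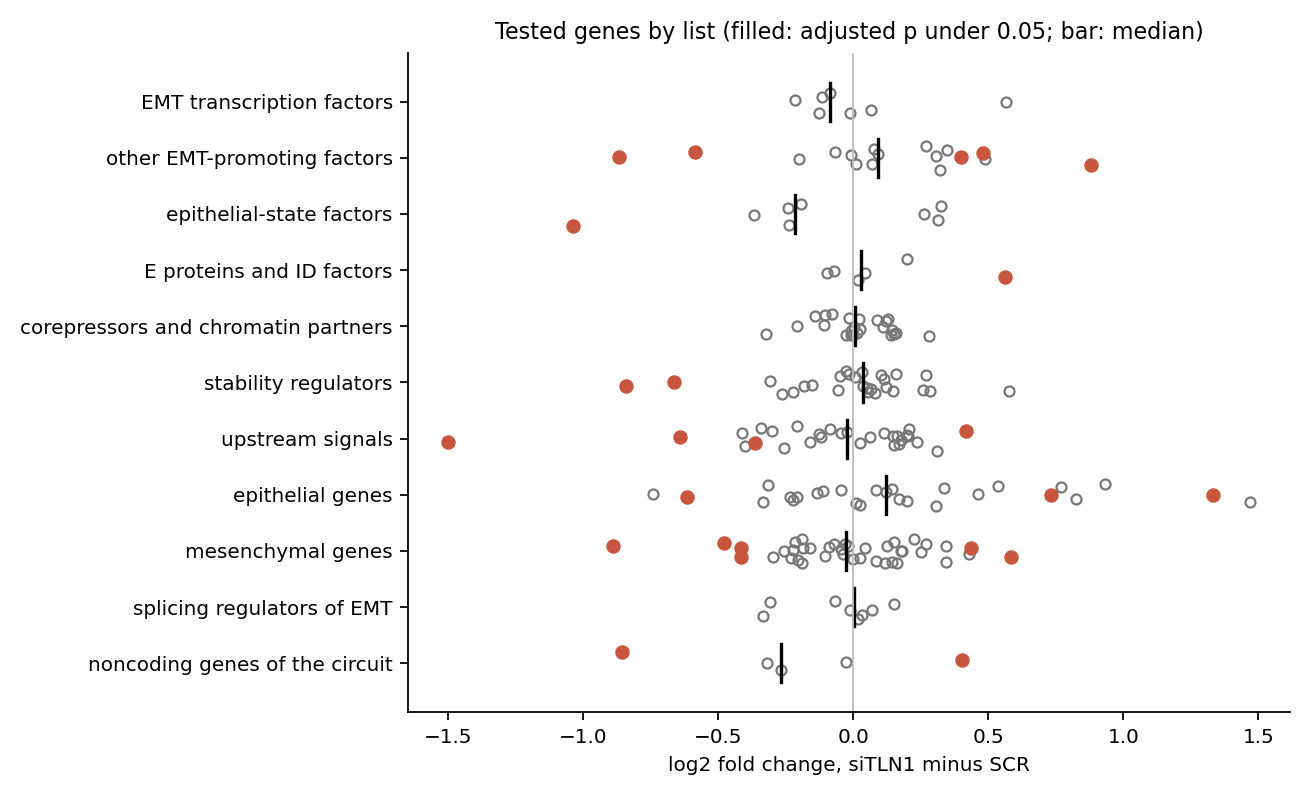
log2 fold change (siTLN1 minus SCR) of each tested gene in the EMT transcription factors and in 10 lists of the circuit, with filled points for an adjusted p under 0.05 in edgeR and a bar at the list median. No EMT transcription factor is filled, while among the filled points EPAS1 at −1.50 lies lowest and SPINT1 at 1.33 highest.

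Epithelial genes, many of them known to be repressed by SNAI or ZEB proteins, numbered 46, of which 27 passed the filter and 3 were called. SPINT1, a membrane inhibitor of serine proteases, rose from 0.535 and 0.373 CPM to 1.1 and 1.17 CPM (log2 fold change 1.33 ± 0.33 SE, edgeR adjusted p = 0.0247), with an adjusted p of 0.16 without SCR library b. MYO5B, a motor of apical recycling, rose from 2.71 and 1.87 CPM to 3.93 and 3.64 CPM (log2 fold change 0.73, adjusted p = 0.0416, and 0.321 without SCR library b). PKP3, a desmosomal plakophilin, fell from 9.72 and 11.3 CPM to 6.43 and 7.21 CPM (log2 fold change −0.62, adjusted p = 0.0128, and 0.159 without siTLN1 library a). CDH1, the textbook target of ZEB1 and SNAI1, had 13 and 18 raw counts in SCR and 29 and 40 in siTLN1. Both siTLN1 libraries lay above both SCR libraries, but the groups did not overlap for 48.4% of all tested genes either. The log2 fold change of CDH1, 0.82 ± 0.35 (SE), had an adjusted p of 0.192 in edgeR. The list median was 0.12, beside 0.0033 over all tested genes. Of the 27, 17 were higher and 10 lower, and 49.4% of all tested genes were lower. The more abundant members KRT18 at 38.2 RPKM, DSG2 at 16.8 RPKM and TJP1 at 14.2 RPKM in SCR were not called.

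Mesenchymal genes gave 6 calls among 40 tested, 2 higher and 4 lower, with a list median of −0.026. CDH2, the cadherin that replaces CDH1 in EMT, fell from 569 and 535 CPM to 303 and 293 CPM, a log2 fold change of −0.89 ± 0.095 (SE) (edgeR, adjusted p = 2.45e-05). SPARC, a matricellular collagen-binding protein, fell from 5119 and 4917 CPM to 3705 and 3500 CPM (log2 fold change −0.48, adjusted p = 0.0161), but passed in none of the fits without 1 library, with an adjusted p of up to 0.142. WNT5B, a ligand of noncanonical Wnt signalling, fell by a log2 value of 0.42 (adjusted p = 0.024, and 0.264 without siTLN1 library b). DCN, a matrix proteoglycan, rose from 337 and 339 CPM to 471 and 442 CPM (log2 fold change 0.43, adjusted p = 0.0103, and 0.131 without siTLN1 library a). FN1 at 1448 RPKM, POSTN at 1260 RPKM and COL1A1 at 1246 RPKM in SCR led the list and were not called. The collagen gene COL5A1, outside the naming rule and named after its values were seen, was also called lower, with a log2 fold change of −0.42 (adjusted p = 0.029, and 0.248 without siTLN1 library b).

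Of the splicing regulators that set epithelial or mesenchymal forms, 0 of 8 tested genes were called in edgeR. Of the 8, 2 had an unadjusted p under 0.05, against 3196 of the 16137 tested genes. HNRNPM at 54.7 RPKM, PTBP1 at 54.4 RPKM and MBNL1 at 41.3 RPKM in SCR led this list. Noncoding genes of the circuit gave 2 calls among 5 tested, SNAI3-AS1 lower and MIR100HG, a host gene of miR-100 and miR-125b, higher. MIR100HG rose from 67.8 and 71.5 CPM to 88.5 and 95.5 CPM (log2 fold change 0.40, edgeR adjusted p = 0.0171, and 0.131 without siTLN1 library b). By level in SCR, MIR100HG at 2.43 RPKM led, before DNM3OS at 1.23 RPKM and ZEB1-AS1 at 1.12 RPKM, neither of which was called. The word GACAACA was present in the 3′ UTR of 6 of the 13 list genes called lower that have a coding transcript (TFAP2A, CTDSPL, MDM2, TGFB2, EPAS1 and CDH2) and of 0 of the 9 called higher. Over all genes of the word search, it was present in 158 of 543 called lower (29.1%) and 19 of 311 called higher (6.11%). The word was taken from earlier results on these libraries, and its part in these calls was not tested.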

How the data were processed

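RNA was sequenced from 4 libraries in 2 groups. The raw count table, deposited by the authors, came from featureCounts 2.0.0 with GENCODE 33 in paired mode with no strand or multi-mapping option, per the file headers, and gene lengths in another unit, bases of exon. STAR 2.7.9a and edgeR 3.34.1 are named in the submitters' processing notes. The authors also deposited log2 CPM values for 16137 genes. Names of count columns hold the group and a number that recurs in both groups but stands in no label. Libraries a and b follow that number, while the labels' replicate numbers stand in the names of the log2 CPM columns. By level, replicates 1 and 2 matched libraries a and b for the EMT factors. ZEB1 in SCR had a log2 CPM of 6.929 and 6.814, beside 121.8 and 112.5 CPM. In siTLN1 it had 6.804 and 6.765, beside 111.7 and 108.7 CPM. The main fit used no block for this number. Of 60721 gene IDs, 60357 matched a symbol.

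Counts were filtered with filterByExpr (minimum count 10, minimum total 15), scaled by TMM and compared with edgeR 4.0.16 (R 4.3.3; glmQLFit, robust, legacy off), with Benjamini-Hochberg adjustment at 0.05. The coefficient of variation between replicates was 0.0805. RPKM is CPM per kilobase of exon. The fit was first tested on simulated data. With a 2-fold change in 200 genes, 192 were called, along with 16 unchanged genes, and with no change 1 gene was called. DESeq2 1.42.0 and limma 3.58.1 served as alternatives, with other scalings and filters, each library left out and a replicate block. Figures used matplotlib 3.10.9.

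The members and lists were chosen with earlier results of these data known. The text names all 10 members, TLN1, the defining markers, and from each list up to 5 called genes by p and the 3 with the highest RPKM. CDH1, other epithelial markers and genes at or near 0 were named outside this rule, and leukocyte and endothelial markers are given by their sums. Values of 2 genes that the rule or the markers would name are not reported here.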

Additional observations from a re-analysis of the deposited data

How the results depend on the processing

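The 7 tested EMT transcription factors gave 0 calls under every alternative run, and 88 of their 90 alternative values kept their direction and their side of the threshold. The smallest adjusted p among those 90 was 0.063, for TWIST2 with the replicate block. SNAI1 has no adjusted p in DESeq2 and is not counted there. SNAI2 changed sign in 2 fits without 1 library, to 0.0105 (SCR library a left out) and 0.00235 (siTLN1 library a left out), and ran from −0.0355 to 0.0105 over the 4 such fits. The 980 called genes became 324 without siTLN1 library a and 1100 without SCR library a, the lowest and highest of the fits without 1 library. With the replicate block, fitted on the deposited log2 CPM, which carry the replicate numbers, 3650 of 16137 genes were called. The main fit called 980 of 16137, so the calls rose over all genes and not only in the lists. The numbers of called list genes then became 9 for other EMT-promoting factors (from 5), 4 for epithelial-state factors (from 1), 2 for E proteins and ID factors (from 1), 3 for corepressors (from 0), 8 for stability regulators (from 2), 17 for upstream signals (from 4), 7 for epithelial genes (from 3), 18 for mesenchymal genes (from 6), 2 for splicing regulators (from 0) and 1 for endothelial markers (from 0). The block rests on 2 pairs of libraries, and the differences between replicate numbers correlated across genes between the groups at 0.19 over all tested genes and 0.53 over those of at least 5 CPM. DESeq2 called 847 genes, among them 7 upstream signals, 1 epithelial gene, 10 mesenchymal genes and 1 splicing regulator. Scaling by total counts alone called 1253 genes, among them 7 upstream signals and 1 splicing regulator. A filter on a mean of at least 10 counts called 998 genes, among them 1 splicing regulator. The cause of these shifts was not tested. By CPM in place of RPKM, 5 of the 10 factors kept their rank. The alternatives for TLN1 and single list genes were chosen after seeing the data. For SNAI1 and SNAI3 the low counts limit what can be seen.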
